A study of Mus musculus with 18 samples.

Results

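The 9 genes described here encode parts of the B cell receptor complex and other proteins of B cells, namely Cd79a, Cd79b, Ms4a1, Cd22, Blk, Pax5, Vpreb3, Fcer2a and Cr2. They were chosen by gene symbol out of 47729 reference genes listed for every library, and all 9 passed the filter on low values that left 11436 protein-coding genes for testing. Their levels were read in 18 spleen libraries of C57BL/6J mice labelled female, which were 4 to 6 weeks old when obtained. LPPC is a cationic lipo-PEG-PEI complex that adsorbs proteins without covalent bonds, and MP stands for the membrane proteins taken from antigen-loaded dendritic cells. The 3 naive mice (N) received no complex. The 3 LM mice received LPPC/MP and a boost with it. The 6 LMA mice were immunized in the same way and then given LPPC/MP that also carried an antibody against CD28, a costimulatory receptor of T cells. The 6 LMS mice were instead given LPPC/MP with an antibody against CTLA4 (CD152), an inhibitory receptor of T cells. The labels do not say which LMA and LMS mice had 1 modulation and which had 2. Modulation with plain LPPC/MP is not among the groups, so a difference from LM combines the antibody with the further doses and the later week. The protocol text attached to every sample describes tumour-bearing mice treated through the skin and RNA from melanoma, whereas the tissue field and the methods of the study give splenocytes. Nothing in the labels states that each library came from its own animal, and the p-values thus reflect only how far these libraries spread.

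A B cell recognises antigen through surface immunoglobulin, which has almost no cytoplasmic tail and signals through the paired chains CD79A and CD79B. Kinases of the Src family such as BLK phosphorylate these chains, coreceptors such as CD21 (the product of Cr2) lower the threshold of the response, and inhibitory receptors such as CD22 raise it. PAX5 holds cells in the B lineage and activates many of the genes above. In a resting mouse spleen B cells are the most frequent lymphocytes and lie in follicles and the marginal zone, so these transcripts are normally abundant there.

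All 9 genes are genes of the B lineage, so the stretches upstream of the starts were searched for motifs of factors known from that lineage. The promoter table of RefSeq (GRCm38.p6) held 6 of the 9 members, and entries for Cd79b, Ms4a1 and Blk were not among them. Searched on both strands in the 250 bases before each start were the octamer ATGCAAAT, the EBF1 palindrome (TCCC and GGGA around a pair of free bases) with its overlapping inner part CCCNNGGG, the PAX5 core GCGTGAC, the ETS PU box GAGGAA and the E-box CAGGTG. The 3 stretches below are shown because they hold the matches described after them. They are written 5′ to 3′ on the strand of the gene, trimmed to the bases outside annotated exons, with the matches in capitals. The Cd79a stretch lies at chr7:24897247-24897380 on the plus strand, directly upstream of the annotated gene. The Cd22 stretch at chr7:30879029-30879176 on the minus strand and the Vpreb3 stretch at chr10:75948050-75948299 on the plus strand lie inside the spans that the annotation gives to those genes.
Cd79a: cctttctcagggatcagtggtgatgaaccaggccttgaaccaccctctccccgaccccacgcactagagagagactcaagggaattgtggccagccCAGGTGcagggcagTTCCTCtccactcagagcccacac
Cd22: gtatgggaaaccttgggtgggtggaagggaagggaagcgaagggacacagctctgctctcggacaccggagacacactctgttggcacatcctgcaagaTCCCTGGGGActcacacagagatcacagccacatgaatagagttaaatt
Vpreb3: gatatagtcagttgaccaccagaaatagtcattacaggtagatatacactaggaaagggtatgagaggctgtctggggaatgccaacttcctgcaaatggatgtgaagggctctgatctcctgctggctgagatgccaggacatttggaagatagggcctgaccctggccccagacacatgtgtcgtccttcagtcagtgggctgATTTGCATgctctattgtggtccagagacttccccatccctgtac

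Cd79a carried an E-box and, on the other strand, a PU box, which lay 154 to 149 and 140 to 135 bases before the RefSeq start. Cd22 carried the EBF1 palindrome 49 to 40 bases before the start, and Vpreb3 carried the octamer, read on the other strand, 45 to 38 bases before it. The octamer was in 1.61% of the 27025 promoters of the table and the EBF1 palindrome in 0.788%. The PU box was in 23.1%, the E-box in 17.1%, the inner part of the palindrome in 11.7% and the PAX5 core in 1.88%. Among the 6 members searched, the E-box was found in Cd79a, Cd22 and Cr2, the PAX5 core in none, and each of the other motifs in 1 gene. These are matches of letters and not sites of measured binding.

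Before the member genes were compared, the libraries were checked against the labels. The Y-linked genes Ddx3y, Eif2s3y, Kdm5d and Uty summed to between 0 and 0.002043 FPKM (fragments per kilobase scaled to library size, a level per length) in N 1, N 2, LMS 2 and LMS 5, and to between 50.72 and 67.28 FPKM in the other 14 libraries, although all mice are labelled female. Xist, the RNA of the inactive X chromosome, stood at 48.11 to 59.88 FPKM in those 4 libraries and at no more than 7.204 FPKM in the 14. Within the 14 it was not uniform, at 0.286 FPKM in N 3 and 1.49 to 2.692 FPKM in LMS 1, 3, 4 and 6. In LM and LMA it was at 4.835 to 7.204 FPKM, so these libraries held both Xist and Y-linked transcripts. The split by Y-linked transcripts also ran through the member genes. Their summed level was 1690.1 and 1353.0 FPKM in N 1 and N 2 and 1343.1 and 1316.3 FPKM in LMS 2 and LMS 5. N 3 had 27.5 FPKM, the lowest of all libraries, and LMS 1, 3, 4 and 6 had 136.59, 210.98, 227.14 and 295.75 FPKM. The LM libraries (244.42, 314.33 and 224.51 FPKM) and the LMA libraries (184.75 to 290.23 FPKM) lay close together and all held Y-linked transcripts. The defining markers of B cells were thus lowest in N 3, which is labelled as spleen like the rest. The Y-linked and Xist levels go against the female label in all 14 libraries with Y-linked transcripts, which include every LM and LMA library. Whether each library holds the sample that its label names was not tested. Every comparison that uses any of these 14 thus rests on labels in doubt. Each comparison is therefore given for all 18 libraries, for the 14 with Y-linked transcripts, in which N is N 3 alone, and with N and LMS restricted to the libraries without them. In bulk RNA, fewer B cells and less RNA per B cell cannot be told apart. Aligned sequence ranged from 5.208 to 7.922 gigabases a library.

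The paired signalling chains of the receptor were the most abundant members. Cd79a (chr7:24897381-24902197, plus strand) stood at 517.51, 402.95 and 9.60 FPKM in N 1, N 2 and N 3. It stood at 82.0, 107.14 and 75.3 FPKM in the LM libraries, and in LMA the lowest, median and highest values were 64.0, 80.5 and 98.3 FPKM. In LMS the same 3 values were 47.5, 92.2 and 371.16 FPKM. The N libraries thus held both the highest and the lowest level, LM and LMA overlapped, and in LMS a pair of libraries (371.16 and 368.27 FPKM) stood far above the other 4. Cd79b (chr11:106311341-106314762, minus strand) followed the same order, with 340.75, 293.70 and 6.54 FPKM in N and 57.2, 67.9 and 50.1 FPKM in LM. Its LMA levels ran from 38.1 to 57.2 FPKM with a median of 46.9 FPKM, and its LMS levels from 35.5 to 318.12 FPKM with a median of 67.1 FPKM. LMA and LM overlapped for Cd79b, although 4 of the 6 LMA libraries lay below every LM library.

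Blk (chr14:63372837-63417187, minus strand), the Src family kinase that acts on these chains, was at 86.4, 65.9 and 1.08 FPKM in N and at 10.5, 13.5 and 9.11 FPKM in LM. Its levels were 7.66 to 13.0 FPKM in LMA (median 9.76) and 5.92 to 65.1 FPKM in LMS (median 11.5). Cd22 (chr7:30865402-30880342, minus strand), a lectin that binds sialic acid and dampens receptor signals, was at 150.61, 123.88 and 2.10 FPKM in N and at 13.2, 19.9 and 13.1 FPKM in LM. In LMA it reached 13.0 to 20.5 FPKM (median 17.1) and in LMS 6.94 to 128.35 FPKM (median 14.0). Both genes again had N 3 at the bottom and N 1 at the top. Without LMS 2 and LMS 5, the LMS range of Cd22 was 6.94 to 15.5 FPKM, which still overlapped LM and LMA.

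Cr2 (chr1:195136811-195176716, minus strand) encodes the complement receptor CD21, a part of the coreceptor that is also made by follicular dendritic cells. It stood at 92.9, 72.6 and 0.903 FPKM in N and at 13.0, 18.1 and 12.3 FPKM in LM. LMA ranged from 8.85 to 13.9 FPKM (median 10.9) and LMS from 3.61 to 75.7 FPKM (median 7.17). The 4 LMS libraries with Y-linked transcripts (3.61, 5.70, 6.37 and 7.97 FPKM) all lay below every LM and LMA library. Fcer2a (chr8:3681737-3694175, minus strand), the low-affinity IgE receptor CD23 of follicular B cells, was at 155.87, 147.51 and 2.16 FPKM in N and at 23.3, 29.2 and 21.2 FPKM in LM. It was at 17.6 to 28.4 FPKM in LMA (median 22.1) and at 11.5 to 145.92 FPKM in LMS (median 20.6), so these groups overlapped. Ms4a1 (chr19:11249675-11266241, minus strand), which encodes CD20, was at 241.66, 183.69 and 3.83 FPKM in N, 28.6 to 39.2 FPKM in LM, 25.8 to 39.4 FPKM in LMA and 21 to 175.25 FPKM in LMS.

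Pax5 (chr4:44524757-44710487, minus strand), the transcription factor, was at 84.7, 47.4 and 0.678 FPKM in N and at 11.5, 14.2 and 11.3 FPKM in LM. LMA ran from 7.58 to 16.6 FPKM (median 12.1) and LMS from 2.85 to 66.1 FPKM (median 7.0). Of the 4 LMS libraries with Y-linked transcripts, only LMS 6 at 8.10 FPKM reached the range of LMA, and none reached that of LM. Vpreb3 (chr10:75943057-75949657, plus strand), a small relative of the surrogate light chain, was the lowest member, at 19.7, 15.5 and 0.639 FPKM in N, 3.51 to 5.21 FPKM in LM, 2.14 to 4.6 FPKM in LMA and 1.89 to 14.9 FPKM in LMS. Its groups overlapped in every comparison, as did those of the other 8 members, while the share of all genes whose groups did not overlap was 30.3% in LMA against N, 0.49% in LMS against N, 6.25% in LMA against LM, 32.8% in LMS against LM and 30.0% in LMA against LMS. The levels of Pax5 and Vpreb3 rest on few reads in the low libraries, since their mean read depth fell to 1.05 and 1.88 where it was lowest. Genes on the other strand overlap Ms4a1, Cd22, Pax5 and Vpreb3, at levels of at most 2.76 FPKM, and whether reads were counted by strand is not given in the sources used here.

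**Figure D1:**
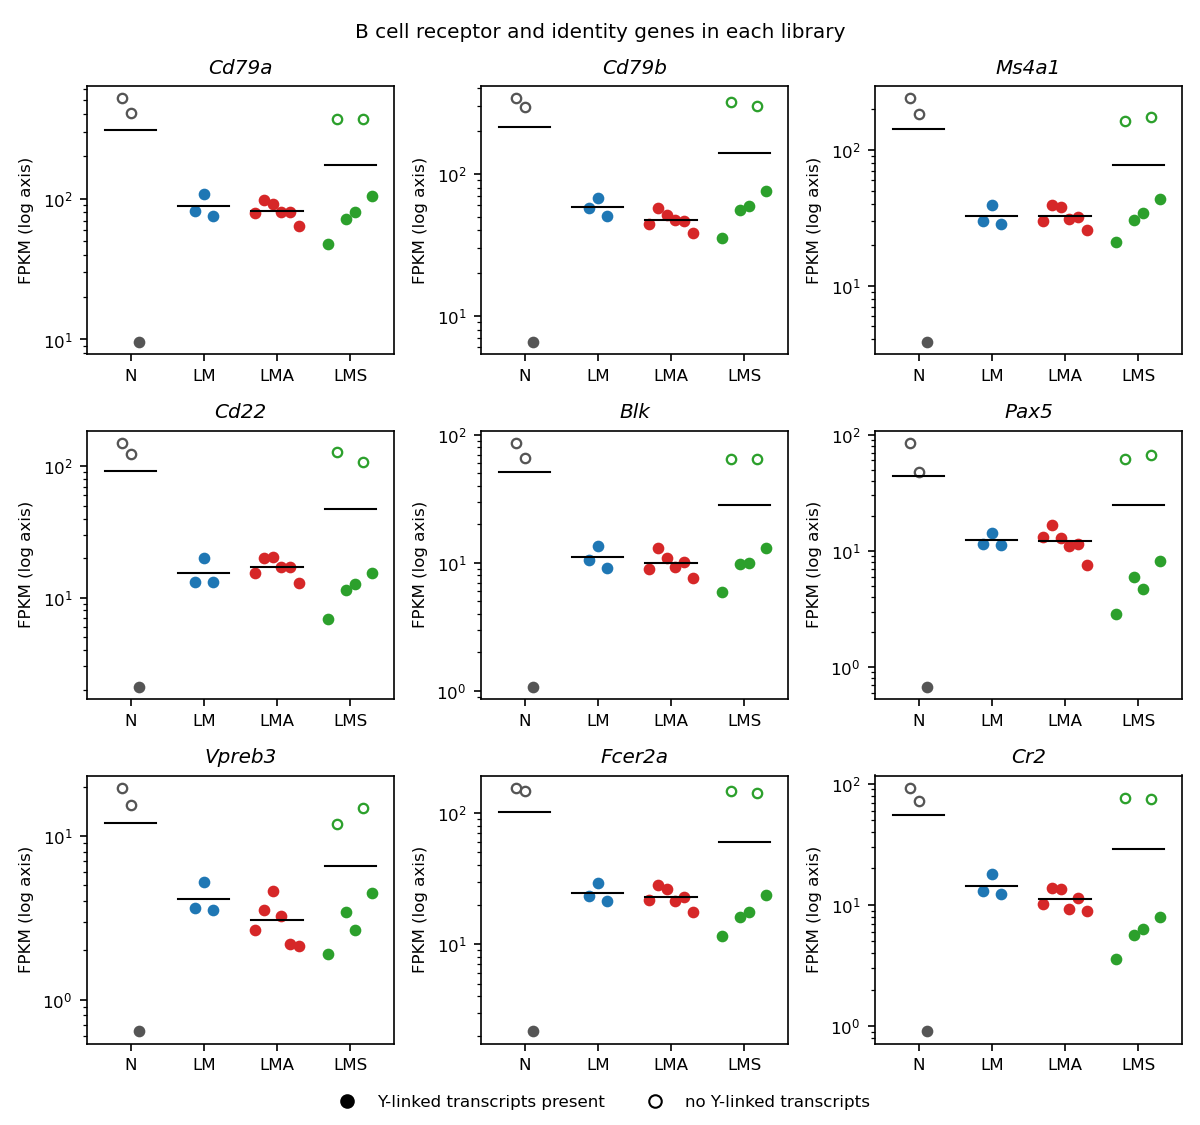
FPKM (log axis) of each of the 9 members in N (n = 3), LM (n = 3), LMA (n = 6) and LMS (n = 6); a point is a library, filled where Y-linked transcripts are present and open where they are not, and the line is the arithmetic mean of the group. In every panel N 1, N 2, LMS 2 and LMS 5 are the highest libraries and N 3 the lowest, as for Cd79a at 517.51 and 9.60 FPKM.

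The members kept their proportions far better than their levels. Taken as log2(FPKM + 0.5), a member varied over the 18 libraries by a median of 5.81, whereas the same value minus the mean of the 9 members in the library varied by a median of 0.72. Blk moved least relative to that mean (a range of 0.40), followed by Fcer2a (0.49) and Ms4a1 (0.51). Vpreb3 (1.85) and Pax5 (1.17) moved most. Vpreb3 owed its range to N 3, where it stood at -1.22 relative to the mean against -3.06 to -1.95 elsewhere. N 3 is also where its level was near the pseudocount.

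Proportions also differed in the LMS libraries with Y-linked transcripts. Relative to the mean of the members, Pax5 stood at -1.56 to -1.24 in these 4 libraries and at -0.83 to -0.38 in all LM and LMA libraries. Cr2 stood at -1.29 to -1.16 there and at -0.87 to -0.43 in LM and LMA. Cd79b stood at 1.88 to 1.95 against 1.24 to 1.59. Cd79a (2.26 to 2.39 against 2.08 to 2.18), Ms4a1 (1.05 to 1.17 against 0.67 to 0.87) and Blk (-0.60 to -0.55 against -0.94 to -0.76) were separated likewise. Relative to the mean, Cd79a, Cd79b, Ms4a1 and Blk were thus higher and Pax5 and Cr2 lower in these LMS libraries, with no overlap. The share of all genes separated on this relative scale was not computed, so the separation cannot be called particular to the members. On levels, limma called 68.1% of all genes in LMS against LM among libraries with Y-linked transcripts. The mean of the members includes Pax5 and Cr2, so lower values of these raise the relative values of the rest. The level of Cd79b itself differed from LM by only -0.09 (SE 0.20) among libraries with Y-linked transcripts. LMS 2 and LMS 5 differed from the other LMS libraries, with Pax5 at -0.73 and -0.65 and Cr2 at -0.45 and -0.49, within the ranges of LM and LMA. Cd22 separated LM (-0.49 to -0.30) from LMA (-0.17 to -0.02). These proportions are a description and were not tested, and all 9 values of a library share its total.

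**Figure D2:**
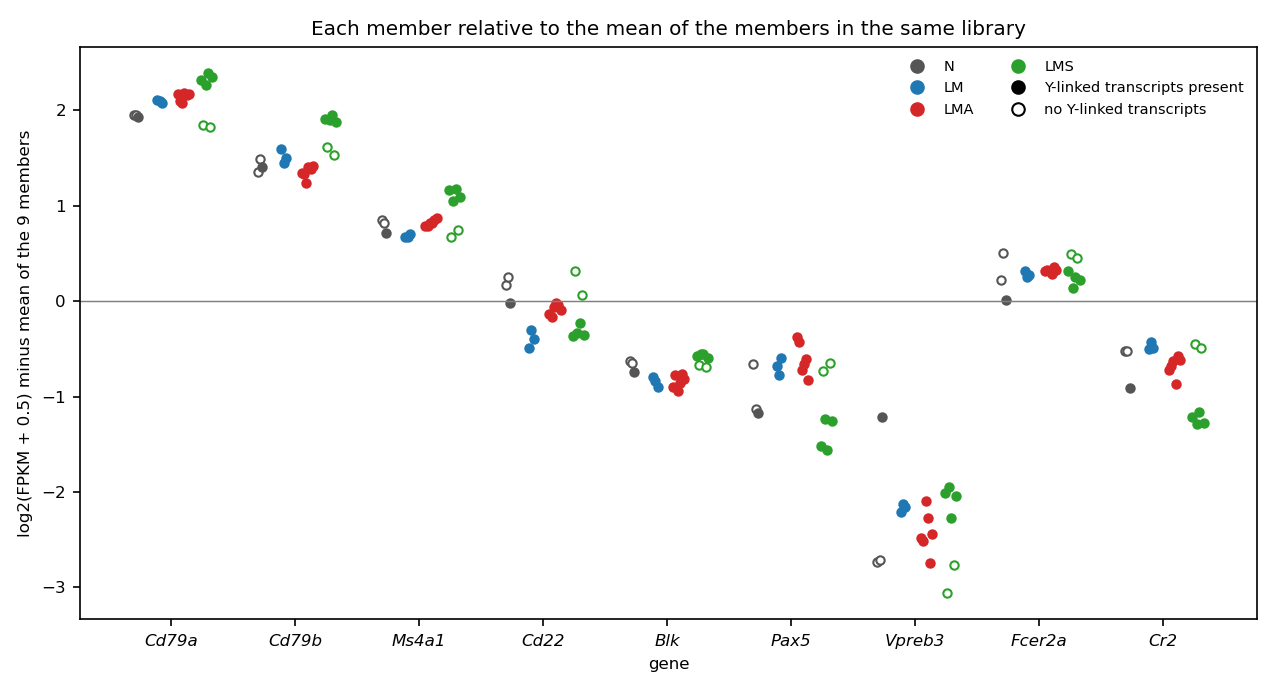
Log2(FPKM + 0.5) of each member minus the mean of the 9 members in the same library, by group (colour) and by presence of Y-linked transcripts (filled or open); a point is a library. Pax5 and Cr2 of the 4 filled LMS libraries sit below all LM and LMA libraries, and Cd79a, Cd79b, Ms4a1 and Blk sit above them.

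The question of the first comparison was whether immunization with LPPC/MP went with a change of the B cell genes against untreated spleen. Over all libraries, limma called none of the 9 members in LM against N, none with an unadjusted p below 0.05 either, while it called 25.0% of all genes tested. The log2 differences of the members ran from -1.23 (Cd22, SE 1.27, adjusted p = 0.483) to -0.40 (Pax5, SE 1.32, adjusted p = 0.828), with a median of -0.65 against -0.11 over all genes. The groups overlapped for all 9 members, whereas 33.6% of all genes had groups that did not. The direction rested on which N libraries were kept. With N 3 as the only N library, all 9 members were higher in LM, by a median of 3.05 on the log2 scale, where 25.8% of all genes were called higher. With N 1 and N 2 as N, all 9 were lower in LM, by a median of -2.48, where 42.1% of all genes were called lower. Leaving out N 3 alone gave 8 of 9 members lower, with 33.8% of all genes called lower. With N and LMS restricted to libraries without Y-linked transcripts, Cd22 fell most (by 3.14, SE 0.21, adjusted p = 7.09e-08). With N 3 as N, Pax5 rose most (by 3.44, SE 0.42, adjusted p = 1.29e-05). N 3 is 1 library, and that test assumes that it varies like the other groups.

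LMA against N behaved alike. None of the 9 members was called, none had an unadjusted p below 0.05, and the median was -0.88, with 35.4% of all genes called and a median of -0.13 over all genes. With N 3 as N, 9 of 9 members were higher in LMA (median 2.93, and 25.6% of all genes called higher). With N 1 and N 2 as N, 9 of 9 were lower (median -2.71, and 44.3% of all genes called lower). Leaving out N 3 alone also gave 9 of 9 lower, with 38.3% of all genes called lower. In LMS against N no gene at all was called by limma (0.0%), no member had an unadjusted p below 0.05, and the members had differences between -0.57 and 0.14. There, 9 of 9 members were higher among libraries with Y-linked transcripts (median 2.64, and 5.03% of all genes called higher), led by Cd79b (2.97, SE 0.29, adjusted p = 0.000109). Between the libraries without them, LMS 2 and 5 against N 1 and 2, none was called and the median was -0.21, with 0.0175% of all genes called. Leaving out N 3 alone gave 7 of 9 members lower in LMS, with 20.6% of all genes called lower. The 3 comparisons share the N libraries and are not independent of each other.

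Whether the antibody against CD28 added to LPPC/MP went with a change was asked in LMA against LM, the comparison in which both groups held Y-linked transcripts throughout. No member was called in any setting. Over all libraries limma called 0.0% of genes, and no member had an unadjusted p below 0.05. The differences ran from -0.40 (Vpreb3) to 0.16 (Cd22) on the log2 scale with a median of -0.10. The standard errors fell from 0.75 to 1.15 in the full set to 0.19 to 0.26 among the 14 libraries with Y-linked transcripts, where the differences were the same and 0.577% of all genes were called. Differences of the size of these standard errors could be missed, and larger ones too. In that subset Vpreb3 at -0.40 (SE 0.24) was not called (adjusted p = 0.577 by limma). Cd79b was the closest to a difference, at -0.30 (SE 0.12, unadjusted p = 0.0294, adjusted p = 0.651 by limma) when N 3 and the 4 LMS libraries with Y-linked transcripts were left out of the fit, where 0.0787% of all genes were called.

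With the antibody against CTLA4 the outcome depended on the pair LMS 2 and LMS 5. Over all libraries no member was called in LMS against LM, where 21.3% of all genes were, and none in LMA against LMS, where 30.7% were, nor did any member have an unadjusted p below 0.05. Among libraries with Y-linked transcripts, Cr2 was lower in LMS than in LM by 1.25 on the log2 scale (difference -1.25, SE 0.22, adjusted p = 0.000247), and Pax5 by 1.20 (difference -1.20, SE 0.28, adjusted p = 0.00182). Fcer2a was the third member called, at -0.53 (SE 0.20, adjusted p = 0.0337). The other 6 members, including both receptor chains, lay between -0.42 and -0.05 and did not pass the test. In this setting 27.6% of all genes were called lower, so 3 of 9 members is a share near that of all genes. Against the same 4 LMS libraries, LMA was higher in Pax5 (1.14, SE 0.23), Cr2 (0.90, SE 0.19), Cd22 (0.58, SE 0.19) and Fcer2a (0.44, SE 0.17), with adjusted p values of 0.00068, 0.000793, 0.0162 and 0.0365, where 28.0% of all genes were called higher. LMS 2 and LMS 5 alone gave the opposite picture, with 9 of 9 members higher than in LM (median 2.38, and 40.5% of all genes called higher) and 9 of 9 lower in LMA (median -2.64, and 42.2% called lower). LM and LMA were each compared with the same LMS libraries, so these results are not independent.

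Since the FPKM of Pax5 sums many transcript models, the same libraries were also compared by mean read depth over the gene, an alternative chosen after the data were seen. Pax5 was then lower in LMS than in LM by 0.85 (difference -0.85, adjusted p = 0.000123) and Cr2 by 1.19 (difference -1.19, adjusted p = 0.000206), so both calls held with a smaller size for Pax5. Follicular dendritic cells, the other source of Cr2, were followed by a list of 8 markers of these and of stromal cells. Of the 8 markers, 7 were in the tables and 4 (Madcam1, Ccl19, Ccl21a and Pdpn) were listed at 0 in some libraries. The list summed to 121.32 to 175.99 FPKM in LM, 27.4 to 96.5 FPKM in LMA and 27.2 to 28.1 FPKM in the 4 LMS libraries in question. In those 4 libraries Mfge8 gave most of the sum, at 25.9 to 27.6 FPKM. The sum was lowest where Cr2 was highest, at 15.8 FPKM in N 1 and N 2 and 21.1 and 15.9 FPKM in LMS 2 and LMS 5. Mfge8 was low there, at 4.79 to 6.71 FPKM. Clu and Cxcl13 went the other way. Clu was at 6.44 to 8.57 FPKM in N 1, N 2, LMS 2 and LMS 5 and at 0.0389 to 0.647 FPKM in the other LMS libraries. Cxcl13 was at 1.12 to 4.12 FPKM and at 0.108 to 0.312 FPKM in the same sets. The part of follicular dendritic cells in the Cr2 difference was not tested.

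Other transcription factors of B cells were lower in the same LMS libraries. Of a list of 11 factors, 9 were lower and 1 (Mef2c) higher than in LM among the libraries with Y-linked transcripts, where 27.6% and 40.5% of all genes were called, with a median of -0.74 against 0.08 over all genes. Pou2f2 (OCT2), which binds the octamer, was at 19.2, 13.5 and 14.9 FPKM in LM and at 4.04, 4.41, 4.92 and 4.89 FPKM in these LMS libraries (difference -1.68, SE 0.13, adjusted p = 1.29e-07). Bach2, a repressor that delays plasma cell differentiation, was at 1.85, 2.13 and 1.85 FPKM in LM and at 0.472, 0.706, 0.330 and 0.775 FPKM in LMS (difference -1.21, SE 0.15, adjusted p = 8.27e-06). Both groups were separate for either gene. LMS 2 and LMS 5 had 24.4 and 23.6 FPKM of Pou2f2 and 13.9 and 16.1 FPKM of Bach2, above every LM library, and over all libraries none of the 11 factors was called in LMS against LM.

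**Figure D3:**
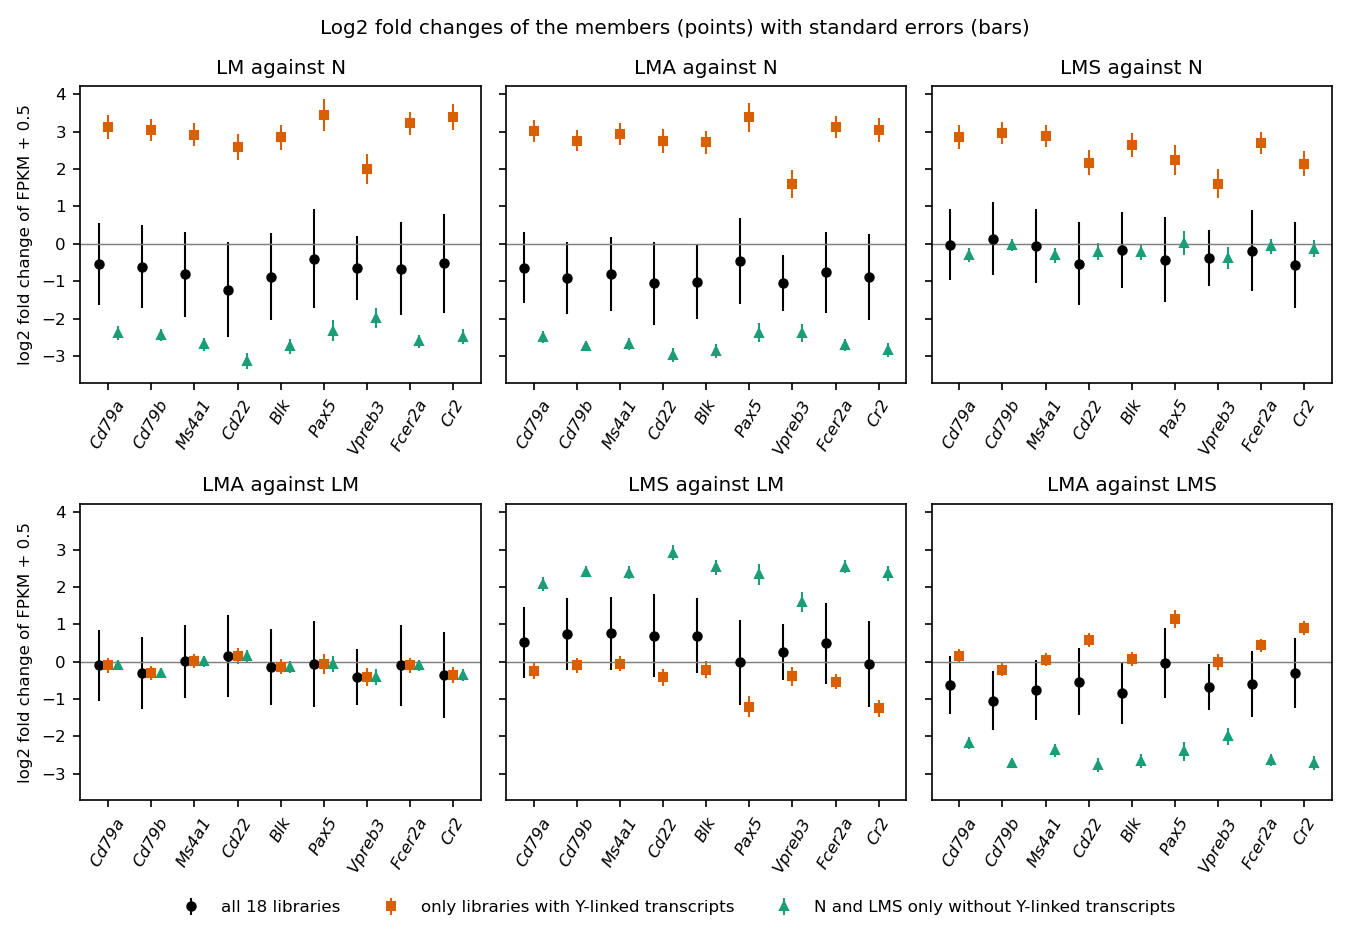
Log2 fold change of FPKM + 0.5 (points) with its standard error (bars) for the 9 members in 6 comparisons, over all 18 libraries (black circles), over the 14 with Y-linked transcripts (squares), and with N and LMS restricted to libraries without them (triangles). In LM and LMA against N the squares sit above 0 and the triangles below it, and in LMA against LM all 3 sets sit between -0.40 and 0.16.

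The next question was whether the rest of the pathway moved with the receptor. Of 18 signalling enzymes and adaptors, 2 were higher and 5 lower in LM than in N, and 2 higher and 6 lower in LMA than in N. Over all genes 9.18% were called higher and 15.9% lower in the first comparison, and 13.6% and 21.9% in the second. The median of the list was -0.64 and -0.54. Btk, the kinase that activates phospholipase C gamma, was at 38.4, 36.3 and 26.2 FPKM in N and at 17.9, 20.1 and 18.4 FPKM in LM, and its groups did not overlap. It fell by 0.80 (log2 difference -0.80, SE 0.13, adjusted p = 0.000305) and was lower in both subsets of libraries (-0.47 with N 3 as N and -0.97 with N 1 and N 2). Dapp1, an adaptor that binds phosphoinositides (-1.24, adjusted p = 0.0134), and Rasgrp3, an activator of Ras (-0.65, adjusted p = 0.0252), were lower in LM than in N in both subsets too, as was the transcription factor Nfatc1 (-1.24, adjusted p = 0.0265). In N 3, where the members summed to 27.5 FPKM, Btk stayed at 26.2, Dapp1 at 5.11 and Nfatc1 at 16.3 FPKM. Rasgrp3 was highest there among the N libraries, at 35.8 FPKM. The part of cells other than B cells in these differences was not tested.

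The adaptor Pik3ap1 (BCAP) and the exchange factor Vav1 went the other way. Pik3ap1 was at 52.5, 38.0 and 28.8 FPKM in N and at 83.3, 82.3 and 84.8 FPKM in LM (difference 1.1, SE 0.16, adjusted p = 0.000129), and at 27.9 to 36.7 FPKM in LMS. Vav1 was at 51.4, 39.7 and 26.5 FPKM in N and at 65.3, 64.3 and 67.5 FPKM in LM (difference 0.79, SE 0.18, adjusted p = 0.00514). The LM values of both genes lay above every N and LMS library. Both proteins are also used by myeloid cells. Macrophage and monocyte markers, none of whose 10 members was listed at 0, summed to 466.03 and 529.8 FPKM in N 2 and N 1, 2226.5 to 2331.5 FPKM in LM and 3665.2 FPKM in N 3. Their part in the rise of Pik3ap1 and Vav1 was not tested. Both genes were higher in LM than in N in either subset, by 1.52 and 0.89 for Pik3ap1 and by 1.29 and 0.53 for Vav1.

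In LMS against LM, 3 signalling genes were higher (Btk 0.60, Dapp1 0.87 and Rasgrp3 0.80) and 2 lower (Pik3ap1 -1.42 and Vav1 -1.03), against 13.3% and 7.94% of all genes. LMA against LMS had 2 higher (Pik3ap1 1.46 and Vav1 1.05) and 4 lower (Btk -0.59, Dapp1 -0.97, Nfatc1 -0.76 and Rasgrp3 -0.65), against 11.3% and 19.4%. No gene of any list was called in LMA against LM or in LMS against N. Of 11 other B cell transcription factors, 1 was called in LMA against N, Tcf3 (-1.13, adjusted p = 0.0429), which stood at 49.5, 51.1 and 13.9 FPKM in N and 13.7 to 15.6 FPKM in LMA and differed by only 0.08 with N 3 as N. Ebf1, Pou2af1 and Spib followed the members and were not called, as for Ebf1 at 30.0, 25.2 and 0.085 FPKM in N and 3.76 to 5.03 FPKM in LM. Among 16 other surface and identity genes, 1 was lower in LM than in N and 3 in LMA than in N, led by Gpr183, the oxysterol receptor that guides B cells in the follicle. Over all genes 15.9% were called lower in LM against N and 21.9% in LMA against N. Gpr183 was at 18.5, 17.3 and 19.3 FPKM in N, 8.88, 9.87 and 9.04 FPKM in LM, 8.95 to 10.4 FPKM in LMA and 15 to 19.5 FPKM in LMS. Its LM and N groups did not overlap (difference -0.95, SE 0.10, adjusted p = 1.15e-05), and N 3 did not stand apart from N 1 and N 2, unlike for the members. The part of cells other than B cells in the Gpr183 difference was not tested. Cd180 (-0.88, adjusted p = 0.0279) and Fcrl1 (-0.68, adjusted p = 0.0423) were the others lower in LMA than in N, with differences of -0.01 and 0.13 when N 3 was N. Gpr183 was the gene of this list called in LMS against LM (0.87, adjusted p = 4.93e-06) and in LMA against LMS (-0.83, adjusted p = 4.45e-07).

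Of the 9 genes of receptor inhibition that were tested, 1 (Inpp5d, the phosphatase SHIP1) was lower in LM (-0.49, adjusted p = 0.0482) and in LMA (-0.41, adjusted p = 0.046) than in N, with differences of -0.09 and 0.00 when N 3 was N. In LM and LMA against N, 15.9% and 21.9% of all genes were called lower, and 9.18% and 13.6% higher. Among the 5 genes of the coreceptor complex, which include Cr2, Ifitm3 was higher in both (2.56 and 2.56, adjusted p = 0.0316 and 0.011). It stood at 31.1, 40.9 and 262.95 FPKM in N, so the difference was 0.65 in both when N 3 was N. Ifitm1 and Ifitm3 were higher in LMA than in LMS (1.51 and 1.67), where 11.3% of all genes were called higher. Ifitm3 is also induced by interferon in many cell types. Of 10 genes of precursor B cells only 3 passed the filter on low values and none was called, and Igll1, Rag1 and Vpreb1 stayed at or below 0.3 FPKM in every library.

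Of 8 germinal centre genes tested, 2 were higher in LM than in N, namely Bcl6 (0.73, SE 0.17, adjusted p = 0.00507) and Basp1 (2.97, SE 0.66, adjusted p = 0.00414). Bcl6 encodes a transcriptional repressor made in germinal centre B cells and in follicular helper T cells. Over all genes 9.18% were called higher and 15.9% lower in LM against N, and 13.6% and 21.9% in LMA against N. Bcl6 was at 14.4, 13.9 and 9.13 FPKM in N, 20.7, 20.1 and 21.2 FPKM in LM and 8.80 to 14.0 FPKM in LMS, so LM lay above both groups, and it was higher than in N in either subset (1.14 and 0.53). Basp1 was at 7.76, 7.57 and 39.5 FPKM in N and 102.98 to 111.14 FPKM in LM, and the difference was 1.44 with N 3 as N and 3.74 with N 1 and N 2. Among the N libraries it was highest in N 3, like the sum of macrophage and monocyte markers. That sum was lower in LM (2226.5 to 2331.5 FPKM) than in N 3 (3665.2 FPKM), whereas Basp1 was higher in LM. The part of those cells in the Basp1 difference was not tested. Bcl6 and Basp1 were both lower in LMS than in LM (-0.95 and -2.33) and higher in LMA than in LMS (0.93 and 2.37). Over all genes 7.94% were called lower in the former comparison and 11.3% higher in the latter. S1pr2 was added in LMA against N (1.32, adjusted p = 0.0438) but differed by -0.02 with N 3 as N. Of 9 plasma cell genes, Sdc1 (syndecan 1) was higher in LM (1.40, SE 0.19, adjusted p = 9.72e-05) and in LMA (1.54, SE 0.17, adjusted p = 5.44e-06) than in N, and lower in LMS than in LM (-1.08, adjusted p = 0.000201). Jchain, the joining chain of secreted IgM and IgA, was at 152.3, 733.43 and 15.7 FPKM in N and was not called. Mzb1, Irf4 and Prdm1 followed the members, as for Mzb1 at 75.2, 85.4 and 2.22 FPKM in N and 21.3 to 30.9 FPKM in LM. The plasma cell list summed to 338.89, 951.61 and 201.62 FPKM in N and 310.25 to 397.36 FPKM in LM, so the rise of Sdc1 was not one of the list. In the marginal zone list of 8 genes, 1 was higher (Cd9, 1.86, adjusted p = 0.0484) and 1 lower (Notch2, -0.83, adjusted p = 0.0344) in LMA against N, and with N 3 as N the differences were 0.06 and -0.04. Of 5 genes of B-1 cells, Bhlhe41 was higher in LMA against N (1.15, adjusted p = 0.0442), with a difference of -0.08 when N 3 was N.

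**Figure D4:**
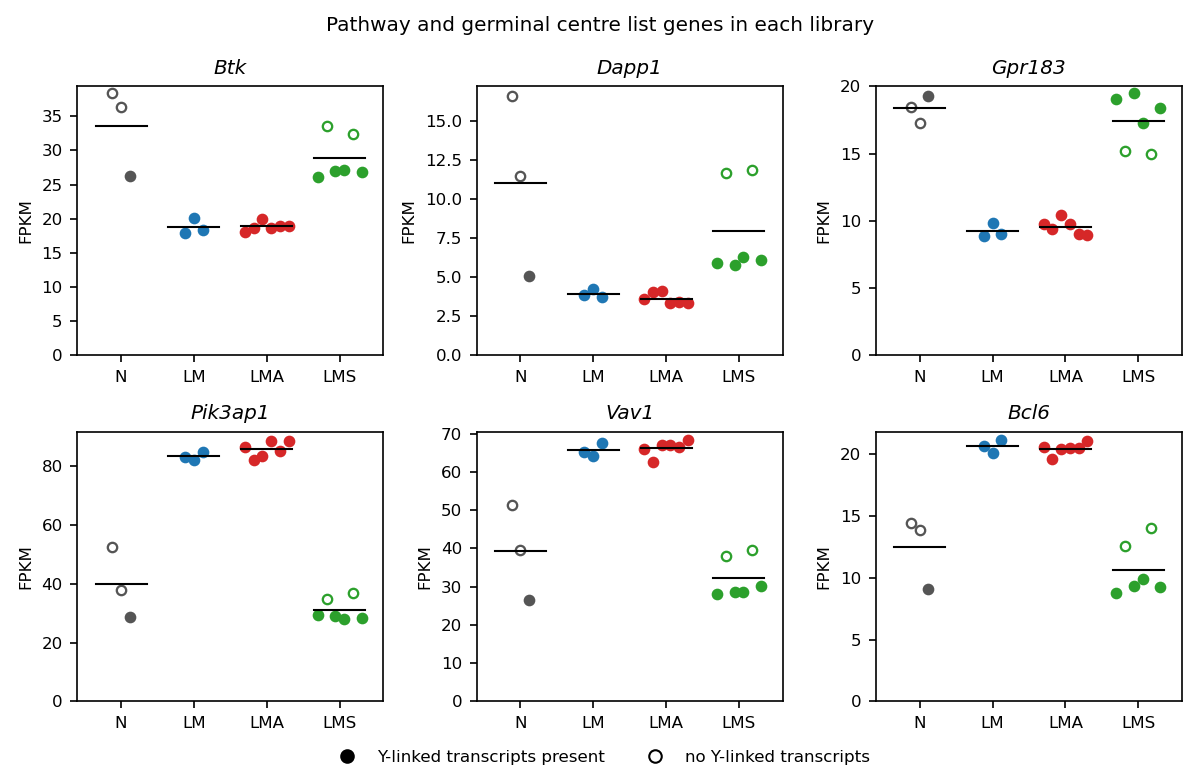
FPKM (linear axis from 0) of 6 list genes that were called in LM against N, namely Btk, Dapp1, Gpr183, Pik3ap1, Vav1 and Bcl6; a point is a library, filled where Y-linked transcripts are present, and the line is the group mean. In all 6 panels the LM and LMA libraries lie outside the range of N, below it for the first 3 genes and above it for the last 3.

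The genes whose profile was most like the mean of the members were named from the Pearson correlation of log2(FPKM + 0.5) over the 18 libraries. They were Tnfrsf13c (r = 0.9967), the receptor for the B cell survival factor BAFF, then Gimap6, Fcmr, Trf, Sash3, Ms4a4b, Il27ra, B3gnt5, H2-DMb2 and Gimap9 (r = 0.9943). Tnfrsf13c ranged from 0.777 to 71.3 FPKM and Fcmr, the receptor for IgM, from 2.83 to 257.22 FPKM. Only 4 of these 10 (Gimap6, Fcmr, H2-DMb2 and Gimap9) were among the 10 most like the members over the 14 libraries with Y-linked transcripts, where H2-Aa (r = 0.997) and H2-Eb1 (r = 0.995), chains of MHC class II, came first. These correlations are descriptions over libraries that share the split described above.

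Markers of some other cells moved with the members, and others did not. T cell markers (11 genes, none listed at 0) summed to 750.82, 507.76 and 9.75 FPKM in N 1, N 2 and N 3, to 100.85 to 143.51 FPKM in LM, 74.4 to 118.37 FPKM in LMA, 472.48 and 472.89 FPKM in LMS 2 and LMS 5 and 43.5 to 94.0 FPKM in the other LMS libraries. NK markers (7 genes, of which Klra8 was listed at 0 in 13 libraries) summed to 165.74 and 119.71 FPKM in N 1 and N 2, 2.90 FPKM in N 3, 6.95 to 11.5 FPKM in LM and LMA, 111.2 and 119.11 FPKM in LMS 2 and LMS 5 and 15.6 to 32.0 FPKM in the other LMS libraries. The summed macrophage list, to which Lyz2 gave most, ran against the members, with 455.31 and 463.35 FPKM in LMS 5 and LMS 2 and 3302.3 to 3490.5 FPKM in the other LMS libraries. LM and LMA lay between, at 2226.5 to 2416.1 FPKM. Of its 10 genes, Vcam1, Mrc1 and Cd163 instead followed the members, as for Vcam1 at 68.1, 64.9 and 0.978 FPKM in N 1, N 2 and N 3. The summed neutrophil markers (10 genes) were highest in LMA (2051.2 to 2790.2 FPKM) and LM (1454.5 to 1699.3 FPKM) and lowest in N 3 (25.8 FPKM). Of these genes, Cxcr2 was instead highest in N 1, N 2, LMS 2 and LMS 5 (7.77 to 8.9 FPKM, against 2.26 to 3.75 FPKM in LM and LMA). Retnlg was higher in N 1 and N 2 (51.8 and 43.5 FPKM) than in LM (24.7 to 29.0 FPKM). Erythroid markers (7 genes) reached 83459, 71845 and 74334 FPKM in N 2, LMS 2 and LMS 5, but only 2518.6 FPKM in N 1, which had the highest member level. Dendritic cell markers (7 genes) summed to 52.9 and 37.0 FPKM in N 1 and N 2, 3.10 FPKM in N 3 and 5.89 to 42.1 FPKM in the other libraries. Of 5 melanocyte markers, Tyr and Dct were listed at 0 in all 18 libraries and the sum never passed 1.97 FPKM. The part of these cells in the member levels was not tested.

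**Figure D5:**
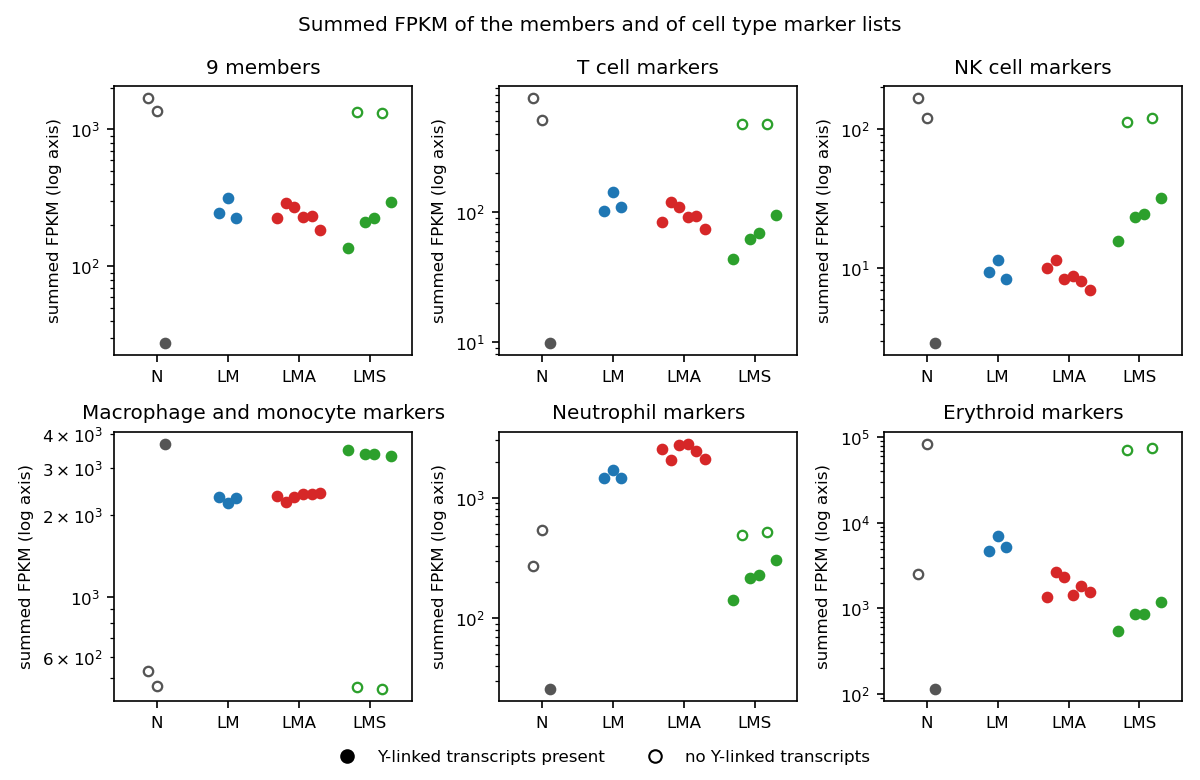
Summed FPKM (log axis) of the 9 members and of 5 lists of cell type markers in each library, by group, filled where Y-linked transcripts are present. T markers follow the members, with N 3 lowest. NK markers are also lowest in N 3, but in the filled LMS libraries they lie above all LM and LMA libraries, unlike the members. Macrophage and monocyte markers are lowest in the 4 open libraries.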

How the data were processed

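Splenocyte RNA of 18 mouse libraries was sequenced by the authors on a NovaSeq instrument. The authors deposited 1 table a library with FPKM, normalized to gene length and library size, without pooling. The build was mm10. The submitters' processing notes name GATK 4.2, and no aligner or quantifier is given in the sources used here. The deposited tables also hold a coverage signal, the mean read depth, used here for the amount of aligned sequence (5.208 to 7.922 gigabases, median 6.662) and for 1 alternative. The deposited TPM column, made by the authors over assembled loci and reference genes together, was treated as a score and not used. The tables used give no counts, so counting intervals are not given.

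Reference genes were used, rows repeated for a gene were summed, and GENCODE M21 gave gene types. limma 3.58.1 in R 4.3.3 (lmFit, eBayes with trend) was fitted to log2(FPKM + 0.5) of 11436 protein-coding genes with mean FPKM of at least 0.5, with 4 groups in 18 libraries. Adjustment was by Benjamini-Hochberg over all genes of a comparison, with 0.05 as the threshold. Fold changes are on that log2 scale and understate changes of low genes. The fit was tested on simulated data. Libraries with a Y-linked sum under 1 FPKM were taken as lacking Y-linked transcripts. Other computations used Python 3.11.15.

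Named are all members, up to 6 called genes a list and comparison by adjusted p, genes that lead a marker list, and the 10 genes most like the members. Ebf1, Pou2af1, Pou2f2, Bach2, Mef2c, Spib, Igll1, Rag1 and Vpreb1 were picked once their values were known. So were Clu, Cxcl13, Mzb1, Irf4, Prdm1, Cxcr2 and Retnlg. The members and lists were chosen with earlier results of these data known. The alternatives were other pseudocounts (0.1 and 1), filters and scales, the compared groups alone, library weights, a replicate block, leaving out each library, and both subsets by Y-linked transcripts. The coverage alternatives were chosen after seeing the data.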

Additional observations from a re-analysis of the deposited data

How the results depend on the processing

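With all 18 libraries, 0 of the 9 members were called in each of the 6 comparisons, also with pseudocounts of 0.1 and 1, other filters, the TPM and median-of-ratios scales, the compared groups alone, and coverage in place of FPKM. In LMA against N the median log2 difference of all genes was -0.13 on FPKM, -0.0 on the TPM scale and 0.01 on the median-of-ratios scale. Leaving out 1 library gave 0 to 8 members called in LM against N, 0 to 9 in LMA against N and 0 to 7 in LMS against N, and the counts above 0 came from leaving out N 3. The range was 0 to 0 in the comparisons without N. Of the 10 genes most like the members, 4 were shared when only the libraries with Y-linked transcripts were used.

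Without the libraries lacking Y-linked transcripts, 9, 9 and 9 members were called against N in LM, LMA and LMS, 3 in LMS against LM and 4 in LMA against LMS. Among those that passed the test there, the log2 differences with a changed sign were, for LM against N, Cd79a 3.12, Cd79b 3.05, Ms4a1 2.92, Cd22 2.59, Blk 2.85, Pax5 3.44, Vpreb3 2.0, Fcer2a 3.22 and Cr2 3.39. For LMA against N they were Cd79a 3.02, Cd79b 2.76, Ms4a1 2.93, Cd22 2.75, Blk 2.71, Pax5 3.38, Vpreb3 1.6, Fcer2a 3.13 and Cr2 3.04. For LMS against N they were Cd79a 2.86, Ms4a1 2.88, Cd22 2.17, Blk 2.64, Pax5 2.24, Vpreb3 1.61, Fcer2a 2.69 and Cr2 2.14. Fcer2a was at -0.53 in LMS against LM, and Cd22, Pax5, Fcer2a and Cr2 were at 0.58, 1.14, 0.44 and 0.90 in LMA against LMS. The sign also turned, without passing the test, for Cd79a, Cd79b, Ms4a1, Cd22, Blk and Vpreb3 in LMS against LM (-0.42 to -0.05) and for Cd79a, Blk and Ms4a1 in LMA against LMS (0.05 to 0.16). Fitted on coverage, the same libraries gave 4 members called in each of these 2 comparisons, with Cd22 -0.54 and Fcer2a -0.53 in LMS against LM and Cd22 0.54, Pax5 0.79, Fcer2a 0.45 and Cr2 0.88 in LMA against LMS. The share of all genes called on coverage was not computed.

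With N and LMS restricted to libraries without Y-linked transcripts, 9 members were called in each comparison except LMS against N and LMA against LM (0 each), and the called Pax5 (2.34) and Cr2 (2.36) changed sign in LMS against LM. Library weights called 9 members, all lower, in each comparison with N, 2, both lower, in LMS against LM and 4, all higher, in LMA against LMS. With these weights 32.6%, 33.9% and 28.9% of all genes were called lower in LM, LMA and LMS against N. In LMS against LM 27.8% were called lower, and in LMA against LMS 28.3% higher. The called values with a changed sign were those of Cd79b in LMS against N (-2.18) and of Cd22 (0.53), Pax5 (1.07), Fcer2a (0.40) and Cr2 (0.85) in LMA against LMS. The sign of uncalled values turned there for Cd79a, Blk and Ms4a1 (0.01 to 0.12), and in LMS against LM for Cd79a, Cd79b, Cd22, Blk, Vpreb3 and Fcer2a (-0.47 to -0.02). The fit of the weights gave a warning that it had not converged. The cause of these shifts was not tested beyond the choice of libraries.

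A replicate block also called 0 members in all 6 comparisons. The labels do not say what the replicate numbers mark. Same-numbered libraries deviated from their group means with correlations of -0.642 to 0.906, of which 13 of 21 were above 0.1. Since pairing was taken only where every correlation passed 0.1, the numbers were not used as pairs.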
